A study of Mus musculus with 81 samples.

Results

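The peptides that cells display on MHC class I molecules are cut from proteins in the cytosol and loaded in the endoplasmic reticulum, and 9 genes of this route were followed here across sorted mouse macrophages. They were chosen by name: Tap1, Tap2, Tapbp, Erap1, B2m, Psmb8, Psmb9, Psmb10 and Nlrc5. Earlier results of these data were known at that choice, so their called shares beside those of all genes are descriptive. Each was represented by the brightest array probe whose only gene symbol was that gene, and these 9 were among 17099 genes tested of 22180 named on the array. The samples were macrophages and their progenitors, sorted by FACS from wild-type and Irf8 knockout mice. Irf8, one of the interferon regulatory factors, binds DNA and is made by macrophages and their progenitors. There were 80 samples in 27 groups, 41 wild type and 39 knockout, with 3 samples in each group except wild-type E14 kidney F4/80high cells, which had 2.

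Wild-type and knockout groups came from the yolk sac at E9.5 (the progenitor populations called A1 and A2), from brain (microglia), liver (Kupffer cells and CD11bhigh cells) and kidney (F4/80high and CD11bhigh cells) at E14 and in the adult at 6 weeks, and from adult skin (Langerhans cells). Erythromyeloid progenitors of the E8 yolk sac, called EMP, were wild type only. The labels gave no strain, sex or pooling, and did not say how the Irf8 allele was made or which part was deleted. They also did not say whether replicates were separate animals, or whether gates of an organ came from the same ones. The p-values and SEs therefore measure the spread between these samples. In the main fit that spread is pooled for each gene over all 27 groups, and is not that of the compared samples alone. The titles of the wild-type Langerhans samples named GFP+ cells and those of the knockout samples did not, and this difference and the genotype cannot be told apart.

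Psmb8, Psmb9 and Psmb10 encode the catalytic subunits of the immunoproteasome, which replace the constitutive catalytic subunits of the 20S proteasome in immune cells and after interferon exposure. Tap1 and Tap2 form the transporter that carries peptides into the endoplasmic reticulum, tapasin (Tapbp) holds the class I molecule to it, and the aminopeptidase Erap1 trims peptides there. B2m is the light chain of every class I molecule, and Nlrc5 is a transactivator of class I genes. Interferon gamma and type I interferons are known inducers of most of them.

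Array medians of the deposited log2 values ran from 2.94 to 3.19, and the number of arrays, not read depth, limits the precision. Replicates were least alike in wild-type adult kidney CD11bhigh cells (lowest Pearson's r 0.915) and knockout adult Kupffer cells (0.927). Limma's array weights were 0.29 to 0.61 and 0.24 to 0.58 in these groups, so the pooled spread can understate theirs. All 9 members differed between wild-type groups by limma's F-test, as did 84.6% of the tested genes. Macrophage markers had a mean log2 level of 3.23 to 3.39 in E8 EMP samples and 6.44 to 6.93 in wild-type A1 samples. Microglia markers reached 10.06 to 10.19 in adult wild-type microglia, Kupffer cell markers 9.07 to 9.32 in E14 wild-type Kupffer cells and Langerhans cell markers 8.84 to 9.15 in wild-type Langerhans cells. The same E14 Kupffer samples read hepatocyte markers at 7.31 to 7.81 and erythroid markers at 7.88 to 8.35. Hepatocyte markers were at 7.82 to 8.34 in adult wild-type Kupffer samples, against 3.43 to 3.58 in adult wild-type microglia. Irf8 itself was lower in 4 of 13 knockout populations, with the widest difference in E14 liver CD11bhigh cells at -3.02 log2 (limma adjusted p = 5.65e-15). In the other 9 its level did not pass the test, and a probe outside the deleted part would not check the genotype. In all these sorted bulk samples, fewer cells of a type and less RNA per cell cannot be told apart.

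The genes of 4 members lie side by side on mouse chromosome 17 in the MHC: Psmb9 at chr17:34182030-34187330, Tap1 at chr17:34187556-34197225, Psmb8 at chr17:34198195-34201454 and Tap2 at chr17:34204479-34216321, in RefSeq's GRCm38.p6. Tapbp lies on the same chromosome at chr17:33919478-33929290. B2m is at chr2:122147687-122153082, Psmb10 at chr8:105935728-105938392, Nlrc5 at chr8:94434335-94527272 and Erap1 at chr13:74639573-74693205. Psmb9 and Tap1 are transcribed away from each other, and the whole stretch between their gene models is 225 bases. It is shown first because these 2 genes moved together in some populations and apart in another. The stretches before Psmb8 and B2m follow because their gene models start next to interferon or inflammatory response motifs, and the Erap1 start site because it carries such a motif across it. That start site lies 280 bases inside the gene model given above. All are given 5′ to 3′ on the plus strand.
between Psmb9 and Tap1, chr17:34187331-34187555, CCAAT box in capitals: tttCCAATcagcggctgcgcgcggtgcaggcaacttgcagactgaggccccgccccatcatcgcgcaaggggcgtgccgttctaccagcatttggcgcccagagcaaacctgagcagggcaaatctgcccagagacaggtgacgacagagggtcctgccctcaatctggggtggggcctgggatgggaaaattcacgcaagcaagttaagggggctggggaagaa
before Psmb8, chr17:34197945-34198194, gamma-activated sequence in capitals: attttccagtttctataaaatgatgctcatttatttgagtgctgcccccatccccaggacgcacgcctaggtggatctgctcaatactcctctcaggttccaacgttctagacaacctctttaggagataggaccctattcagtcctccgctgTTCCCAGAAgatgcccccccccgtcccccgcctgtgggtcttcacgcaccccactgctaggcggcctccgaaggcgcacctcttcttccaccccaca
before B2m, chr2:122147437-122147686, interferon-stimulated response element core and kappa B motif in capitals: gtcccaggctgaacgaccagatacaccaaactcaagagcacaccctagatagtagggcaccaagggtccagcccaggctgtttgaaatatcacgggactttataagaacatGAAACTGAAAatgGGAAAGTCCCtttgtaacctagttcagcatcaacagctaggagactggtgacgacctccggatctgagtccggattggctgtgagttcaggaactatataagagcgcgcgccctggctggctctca
around the Erap1 start, chr13:74639839-74639868, interferon-stimulated response element core in capitals: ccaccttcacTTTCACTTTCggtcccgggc

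RefSeq promoter windows, 250 bases before to 50 after a start site, were given for 7 of the 9 members, and Tap2 and Nlrc5 had none. Both strands were searched. The core of the interferon-stimulated response element (GAAA, any 2 bases, GAAA) was in the windows of B2m and Erap1 and in 3.44% of all 32851 promoter windows. The composite of an ETS and an IRF half-site (GGAA, any 2 bases, GAAA), the kind of element that Irf8 is known to bind with PU.1, was in none of the 7 and in 2.72% of all windows. The gamma-activated sequence (TTCNNNGAA) was in the Psmb8 window, from -97 to -89 relative to the start site, and in 8.3% of all windows. The kappa B motif (GGGA, any base, TTTCC) was in the B2m window and in 0.41% of all. The CCAAT box (CCAAT) was in the windows of Tap1, Psmb9, Tapbp and B2m and in 37.41% of all. The windows of Tap1 and Psmb9 overlap by 275 bases, so their CCAAT box is a single element. Matches of different motifs can share bases.

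In wild-type mice the 9 genes were lowest before macrophages had formed and mostly highest in adult liver and kidney. E8 EMP had the lowest group mean of all 14 wild-type groups for 8 of the 9 genes, and the exception was Psmb10, lowest in Langerhans cells. The highest mean was in adult liver CD11bhigh cells for Tap1, Tapbp, Psmb8 and Psmb10, in adult kidney F4/80high cells for Tap2 and Nlrc5, in adult Kupffer cells for Psmb9, in adult kidney CD11bhigh cells for B2m, and in E14 kidney CD11bhigh cells for Erap1. The distance between a gene's highest and lowest wild-type means ran from 3.01 log2 for Tap2 to 6.09 log2 for Psmb9. Neighbours in the order often overlapped: of 13 neighbouring pairs, the samples overlapped in 8 for Tap1, in 9 for Tapbp, Psmb8 and Psmb9, in 10 for Erap1, in 11 for Tap2 and B2m, and in 12 for Psmb10 and Nlrc5.

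**Figure D1:**
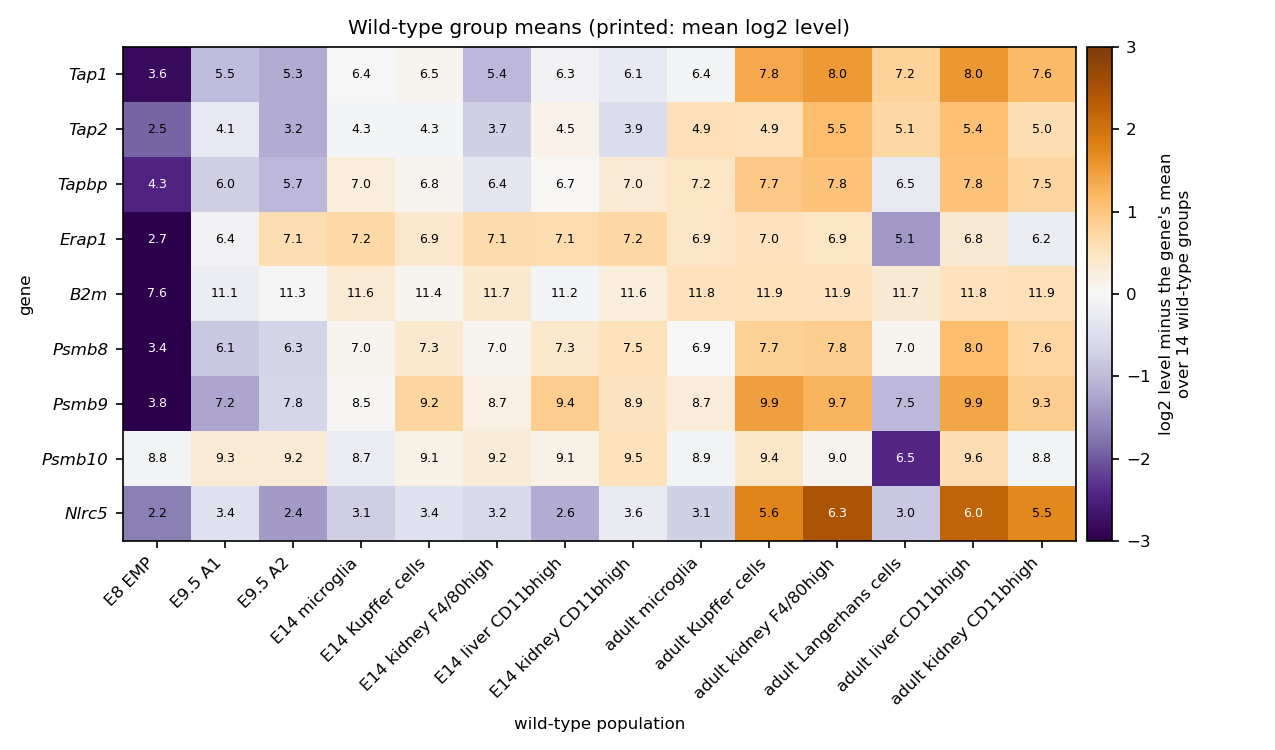
Mean log2 level of the 9 genes (rows) in the 14 wild-type groups (columns), printed in each cell. Colour is the difference from that gene's mean over the 14 groups, so it compares groups within a row and not genes. E8 EMP is darkest purple for Erap1, B2m, Psmb8 and Psmb9. Nlrc5 is orange only in adult Kupffer, kidney and liver CD11bhigh cells, at 5.54 to 6.29.

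Tap1, a transporter subunit, ran down in steps across the wild-type groups. Its 3 samples read 7.90, 8.12 and 7.97 in adult liver CD11bhigh cells, 8.03, 8.20 and 7.69 in adult kidney F4/80high cells, 7.62, 7.81 and 7.96 in adult Kupffer cells and 7.58, 7.49 and 7.72 in adult kidney CD11bhigh cells. Each of these overlapped its neighbour in the order. Langerhans cells came next at 7.15, 7.28 and 7.25 and overlapped neither side. E14 Kupffer cells (6.68, 6.44 and 6.36), E14 microglia (6.21, 6.54 and 6.50), adult microglia (6.52, 6.29 and 6.35), E14 liver CD11bhigh cells (6.22, 6.29 and 6.48) and E14 kidney CD11bhigh cells (6.13, 5.90 and 6.39) followed as a run of overlapping neighbours. A1 (5.28, 5.34 and 5.81), E14 kidney F4/80high cells (5.46 and 5.38) and A2 (5.20, 5.36 and 5.24) were lower, with overlap between the first pair, and E8 EMP at 3.81, 3.53 and 3.50 stood apart below all of them.

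Nlrc5, the class I transactivator, separated 4 wild-type groups from the other 10. Its samples read 5.94, 6.79 and 6.15 in adult kidney F4/80high cells, 6.04, 5.98 and 6.04 in adult liver CD11bhigh cells, 5.18, 6.06 and 5.54 in adult Kupffer cells and 5.16, 5.63 and 5.83 in adult kidney CD11bhigh cells. The next group down was E14 kidney CD11bhigh at 3.63, 3.50 and 3.56, with a gap of 1.97 log2 between the means. From there to E8 EMP at 1.97, 2.07 and 2.48 every neighbouring pair overlapped. The probe read above the median of the whole table, 3.041, in 42 of 80 samples, so differences among the 10 lower groups were measured near the lower end of the scale.

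The immunoproteasome genes had different low points. Psmb8 read 3.67, 3.34 and 3.06 and Psmb9 3.63, 3.98 and 3.91 in E8 EMP, below every other wild-type sample of the same gene. Psmb10 was already at 9.12, 8.61 and 8.82 in E8 EMP, a level that overlapped adult microglia and adult kidney CD11bhigh cells. Psmb10 dropped in a single group, Langerhans cells, at 6.81, 6.38 and 6.40, 2.19 log2 below the next group mean. Erap1 was low in E8 EMP at 2.37, 2.95 and 2.80 and in Langerhans cells at 4.88, 5.21 and 5.16, while its other 12 group means lay between 6.24 and 7.19. B2m lay between 11.14 and 11.91 in all groups after E8 EMP, where it read 7.54, 7.50 and 7.69. The B2m probe was among the brightest of the array, with a highest sample of 12.04 against a table maximum of 13.2.

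The step from E8 EMP to A1 at E9.5 held the widest changes of most members. Of the 9 genes, 8 were higher in A1, where 22.7% of all tested genes were called in either direction. The median difference of the 9 was 1.86 log2, against -0.06 over all tested genes. B2m rose by 3.56 ± 0.08 log2 (SE, n = 3 and 3, as in every comparison of 2 groups except those with wild-type E14 kidney F4/80high cells, with 2; limma adjusted p = 2.40e-45), Erap1 by 3.66 ± 0.16 and Psmb9 by 3.39 ± 0.19. Tap1 rose by 1.86 ± 0.20, Tapbp by 1.71 ± 0.17 and Tap2 by 1.61 ± 0.22. Psmb10 differed by 0.40 ± 0.16, adjusted p = 0.0661, and its samples read 9.30, 9.26 and 9.19 in A1. The samples of the 2 groups overlapped for none of the 9 genes. Macrophage markers were higher in A1 for 8 of 8 and erythroid markers lower for 4 of 4, and their part was not tested. From A1 to A2 the genes parted: 2 rose and 2 fell, with 11.4% of all genes called. Erap1 rose by 0.72 ± 0.16 (limma adjusted p = 5.15e-04) and Psmb9 by 0.60 ± 0.19, while Tap2 changed by -0.88 ± 0.22 and Nlrc5 by -0.93 ± 0.24. Without wild-type A1 replicate 3, at 4.06 the highest of its group, the Nlrc5 difference was -0.59 (adjusted p = 0.169). The Psmb9 rise was lost without A1 replicate 1 or 2 or without A2 replicate 2 or 3, at 0.54 to 0.61 (adjusted p 0.0555 to 0.109).

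From A2 to the E14 tissue macrophages Tapbp, Psmb8, Psmb9 and Nlrc5 rose in all 3 populations, and Tap1 and Tap2 in microglia and Kupffer cells. In E14 microglia 7 members were higher and 1 lower than in A2 (29.2% of all genes called), in E14 Kupffer cells 6 were higher (25.6%) and in E14 kidney F4/80high cells 5 were higher (18.2%). Hepatocyte markers were higher for 6 of 7 and erythroid markers for 3 of 4 in E14 Kupffer cells, with 0 lower. Neutrophil markers were higher for 7 of 14 and lower for 1 in E14 microglia, and macrophage markers higher for 8 of 8. The part of these markers in the members' rises was not tested. Tap1 was higher by 1.15 ± 0.20 log2 in microglia and 1.23 ± 0.20 in Kupffer cells, and differed by 0.15 ± 0.22, adjusted p = 0.727 in kidney F4/80high cells. Tap2 did not pass in the latter either (0.46 ± 0.24, adjusted p = 0.203 by limma), and the Tapbp difference there was 0.31 (adjusted p = 0.251) with the mean of all probes. Psmb9 was higher by 0.69 ± 0.19, 1.41 ± 0.19 and 0.83 ± 0.21 in the 3 populations. Psmb10 was lower in microglia (-0.52 ± 0.16, adjusted p = 0.00998 by limma). Erap1 differed by 0.08, -0.23 and 0.05, with no adjusted p under 0.31. The Nlrc5 rise in microglia (0.63 ± 0.24, adjusted p = 0.0431) was lost without any 1 of 4 samples, E14 microglia replicate 1 or 3 or A2 replicate 1 or 2, at 0.51 to 0.61. It was also lost with quantile normalization (0.54, limma adjusted p = 0.0972), median centring (0.51, 0.1002), the compared groups alone (0.0553) and no filter on low values (0.0544). In kidney F4/80high cells, where wild type had 2 samples, the calls of Tapbp, Psmb8, Psmb9 and Nlrc5 were each lost without 1 of them, at adjusted p of 0.0504 to 0.356 by limma, or for Nlrc5 without A2 replicate 1 (0.72) or 2 (0.65).

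Between E14 and the adult, 5 to 8 of the 9 genes rose in each liver and kidney population, and 1 rose in microglia. Over 5 wild-type populations, 26 of 45 tests were higher in the adult, 2 were lower and 17 did not pass (62.2% called, against 29.2% of all genes over the same 5 populations, of which 11.8% were higher and 17.4% lower). The median difference of the 9 genes was 1.04 log2 in kidney F4/80high cells, 0.74 in liver CD11bhigh cells, 0.61 in Kupffer cells, 0.40 in kidney CD11bhigh cells and 0.14 in microglia, and that of all genes lay between -0.06 and -0.01. Liver CD11bhigh cells had 8 members higher (34.3% of all genes called in either direction), Kupffer cells 6 (30.0%), kidney F4/80high cells 6 (28.2%), and kidney CD11bhigh cells 5 higher and 2 lower (35.0%). Microglia had 1 higher, Tap2 (18.3%). Counts by population share no samples, but they may not be independent. Same-numbered wild-type E14 samples had like Xist levels in microglia (10.21, 7.39 and 9.21), Kupffer cells (9.71, 5.76 and 9.21) and liver CD11bhigh cells (9.71, 5.92 and 8.82). The labels did not say whether they came from the same animals.

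Markers of other cell types moved in the same comparisons. T and NK cell markers, 11 measured of 12, were higher in the adult for 10 in Kupffer cells, 10 in kidney CD11bhigh, 8 in liver CD11bhigh and 7 in kidney F4/80high cells, and for 0 in microglia. Their mean log2 level in Kupffer cells was 2.99 to 3.39 at E14 and 4.95 to 7.10 in the adult. Kidney tubule markers were higher for 8 of 9 in F4/80high cells, at 2.49 to 2.60 against 5.36 to 7.61 in the adult, and for 9 of 9 in CD11bhigh cells, at 2.41 to 2.56 against 6.93 to 9.78. Endothelial markers were higher for 13 of 14 in Kupffer cells, at 3.73 to 3.93 against 5.06 to 6.85. Xist, a female-specific transcript, read 2.58 to 3.88 in all wild-type adult liver and kidney samples and 3.28 to 9.74 in those of E14. Other lists moved as well. Neutrophil markers, 14 measured, were lower for 8 in liver CD11bhigh (median -3.69 log2, 1 higher), 8 in kidney CD11bhigh and 7 in Kupffer cells. Progenitor markers were lower for 5 of 7 in liver CD11bhigh and 6 of 7 in Kupffer cells, and erythroid markers for 4 of 4 in both. Macrophage markers were higher for 7 of 8 in liver CD11bhigh cells, and higher for 2 and lower for 4 in kidney CD11bhigh cells. The part of all these markers and of sex in the members' rises was not tested.

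Outside microglia, Nlrc5 had the widest adult rise of the 9 genes in each of the 4 populations. In liver CD11bhigh cells the 3 samples read 2.67, 2.88 and 2.33 at E14 and 6.04, 5.98 and 6.04 in the adult, a difference of 3.40 ± 0.24 log2 (limma adjusted p = 1.38e-18). The E14 samples all lay below 3.041, so the size of this difference was measured near the lower end of the scale. It was higher by 3.07 ± 0.27 in kidney F4/80high cells, 2.22 ± 0.24 in Kupffer cells and 1.97 ± 0.24 in kidney CD11bhigh cells. The adult and E14 samples did not overlap in these 4 populations. In microglia they read 3.22, 2.91 and 3.11 at E14 and 3.05, 3.30 and 2.96 in the adult, and overlapped (0.02 ± 0.24, adjusted p = 0.978 by limma).

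Tap1 had the second widest rise in the same 4 populations. In kidney F4/80high cells it rose from 5.46 and 5.38 to 8.03, 8.20 and 7.69, a difference of 2.56 ± 0.22 log2 (limma adjusted p = 3.12e-14). It rose by 1.67 ± 0.20 in liver CD11bhigh cells, 1.46 ± 0.20 in kidney CD11bhigh cells and 1.31 ± 0.20 in Kupffer cells, and differed by -0.03 ± 0.20, adjusted p = 0.964 in microglia. Tap2, the other transporter subunit, passed in all 5 populations, from 0.61 in Kupffer cells to 1.82 in kidney F4/80high cells. The Tap2 rises in Kupffer cells and microglia (0.63) were the least stable: the first was lost without E14 replicate 2 or 3 or adult replicate 1 or 2, at 0.44 to 0.61, and the second without E14 replicate 1 or 3 or adult replicate 1 or 2, at 0.46 to 0.67. With only the compared groups fitted, neither of these Tap2 rises passed (limma adjusted p = 0.135 in Kupffer cells and 0.056 in microglia). Tapbp rose by 0.89 to 1.39 in Kupffer, liver CD11bhigh and kidney F4/80high cells, and by 0.45 in kidney CD11bhigh cells. The last was 0.30 (adjusted p = 0.227) without E14 replicate 1, 0.39 without adult replicate 3 and 0.45 (0.0627) without adult replicate 2, and 0.21 (0.333) with the mean of all Tapbp probes.

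Among the immunoproteasome genes, Psmb8 and Psmb9 rose or did not pass and Psmb10 went both ways. Psmb9 was higher in the adult by 1.04 ± 0.21 log2 in kidney F4/80high cells, 0.69 ± 0.19 in Kupffer cells and 0.51 ± 0.19 in liver CD11bhigh cells. Psmb8 was higher by 0.81 ± 0.21 in kidney F4/80high and 0.74 ± 0.19 in liver CD11bhigh cells. Psmb10 was higher in liver CD11bhigh cells (0.47 ± 0.16, adjusted p = 0.019 by limma) and lower in kidney CD11bhigh cells (-0.64 ± 0.16, adjusted p = 0.00118), where its samples read 9.58, 9.37 and 9.50 at E14 and 8.69, 8.84 and 9.01 in the adult without overlap. In liver CD11bhigh cells the Psmb9 call was lost without E14 replicate 2 or 3 or adult replicate 2 or 3 (0.47 to 0.51), and the Psmb10 call without E14 replicate 3 or adult replicate 3 (both 0.39). Erap1 was lower in adult kidney CD11bhigh cells, 6.22, 6.16 and 6.35 against 7.25, 7.20 and 7.12 at E14 (-0.95 ± 0.16, adjusted p = 1.33e-06 by limma), and did not pass elsewhere (-0.30 to 0.14). B2m rose by 0.33 to 0.61 in Kupffer, liver CD11bhigh and kidney CD11bhigh cells.

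**Figure D2:**
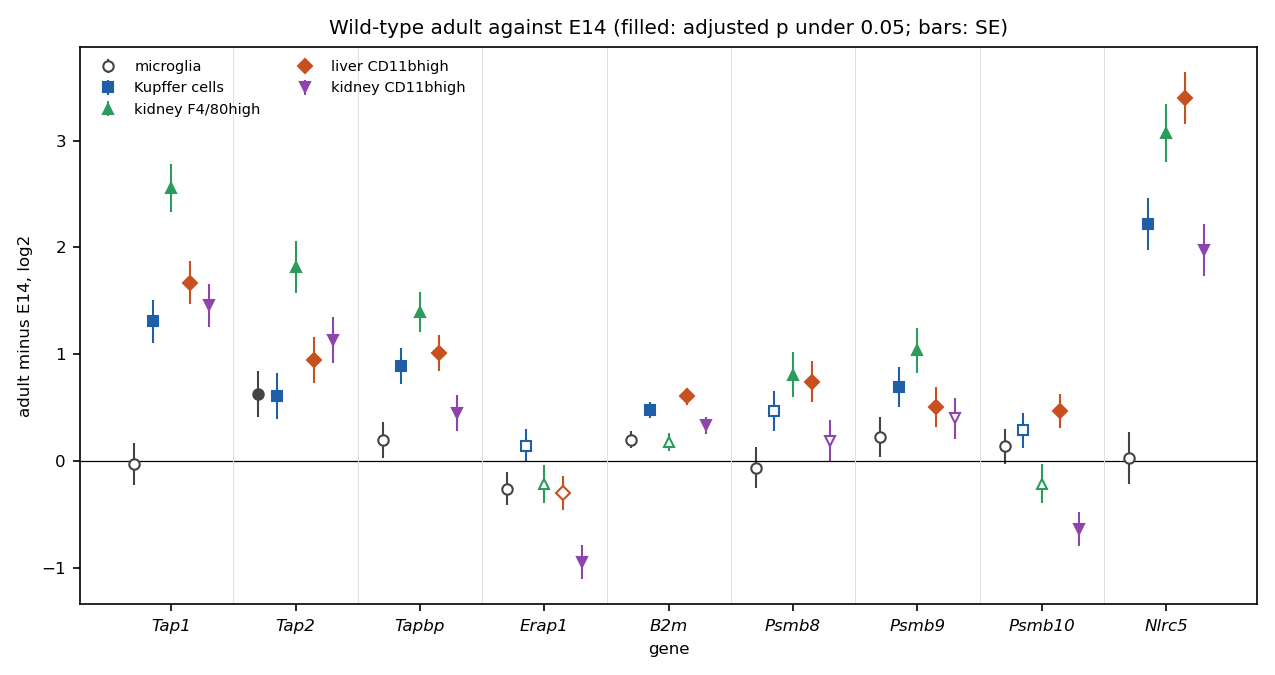
Adult minus E14 log2 level in wild-type cells for the 9 genes (horizontal axis) in 5 populations (symbols), with SE bars and filled symbols where limma's adjusted p was under 0.05. Nlrc5 and Tap1 are highest outside microglia, and the microglia symbols sit near 0 except for Tap2 at 0.63.

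Other parts of the route moved in both directions in the same comparison, and differences between lists were not tested. The constitutive catalytic subunits Psmb5, Psmb6 and Psmb7 were all 3 lower in the adult in all 5 populations, with median differences from -1.17 log2 in kidney F4/80high cells to -0.54 in Kupffer cells. Of 10 other 20S subunits tested, 4 to 9 were lower and 0 higher in each population. Of 9 proteasome activators and assembly factors, 2 to 7 were lower, with 7 lower and 1 higher in Kupffer cells. The activator subunit Psme2, also interferon-inducible, was lower there by limma (-1.36). Of 7 peptidases 2 to 5 were lower and 0 higher, among them the aminopeptidase Lap3 in Kupffer cells (-1.35). Class I heavy chains, 12 tested of 21 listed, were higher for 4 in microglia, 10 in Kupffer cells, 8 in kidney F4/80high cells, 10 in liver CD11bhigh cells and 7 in kidney CD11bhigh cells, with 1 lower in the last. H2-K1, a classical class I heavy chain, was higher by 2.33 ± 0.20 in liver CD11bhigh cells and 1.07 ± 0.20 in microglia. Heavy-chain genes are near-identical copies, and probes can read several of them, so values of single genes are uncertain. Of 8 loading chaperones of the endoplasmic reticulum, 1 was higher in each population, and 0 were lower in microglia, 1 in kidney F4/80high, 4 in Kupffer, 4 in kidney CD11bhigh and 5 in liver CD11bhigh cells. Calreticulin (Calr) was lower by limma in liver CD11bhigh cells (-1.16) and Kupffer cells (-0.43), while Tapbpl, a tapasin-related editor, was higher in Kupffer cells (0.82) and kidney F4/80high cells (1.46). Of 34 interferon-stimulated genes tested, 34 were higher in adult liver CD11bhigh cells, 30 in Kupffer cells and 27 in kidney F4/80high cells, with none lower in these 3. In kidney CD11bhigh cells 13 were higher and 2 lower, and in microglia 4 and 3. Cxcl9, an interferon gamma-induced chemokine, was higher by 6.66 log2 in liver CD11bhigh cells, and Stat2 was lower in microglia (-0.77).

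Among the 4 adult resident populations, Nlrc5 and Psmb8 were lower in both Langerhans cells and microglia and higher in both Kupffer and kidney F4/80high cells. Each population was set against the mean of the other 3. Xist read 9.77 to 10.30 in the Langerhans samples and 2.99, 10.17 and 10.36 in the microglia samples. It read 2.58 to 3.88 in all Kupffer and kidney F4/80high samples. The part of sex in these contrasts was not tested, nor was that of the markers of other cell types given above for adult Kupffer and kidney cells. In Langerhans cells 7 members were lower and none higher (52.8% of all genes called), led by Psmb10 at -2.55 ± 0.13 log2 (limma adjusted p = 5.51e-26), Nlrc5 at -2.02 ± 0.20, and Erap1 at -1.86 ± 0.13. Psmb9 was lower too, at 7.80, 7.21 and 7.37 against 8.64 to 10.12 in the other 3 populations (adjusted p = 4.71e-18). Tap1 (-0.16) and Tap2 (-0.03) did not pass there. B2m in Langerhans cells was -0.20 ± 0.06, adjusted p = 0.00778 by limma, and -0.14 (adjusted p = 0.118) without replicate 2. In the same cells the 3 constitutive catalytic subunits were all higher, with a median of 0.78 log2, as were 9 of 10 other 20S subunits, and all 34 interferon-stimulated genes were lower.

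Adult microglia had 3 members lower and 2 higher (41.2% of all genes called). Tap1 (-1.28 ± 0.16 log2), Nlrc5 (-1.85 ± 0.20) and Psmb8 (-0.61 ± 0.16) were lower, Erap1 (0.57 ± 0.13) and Psmb10 (0.56 ± 0.13) higher, and 24 of 34 interferon-stimulated genes were lower. The Psmb8 call was lost without microglia replicate 1 (-0.43, limma adjusted p = 0.0574). Kupffer cells had 7 members higher (39.0%) and kidney F4/80high cells 8 (30.2%). Nlrc5 was higher by 1.47 ± 0.20 and 2.40 ± 0.20, and Psmb9 by 1.30 ± 0.15 and 0.99 ± 0.15. The Psmb8 call in Kupffer cells was lost without replicate 2 (0.27, adjusted p = 0.24) and that in kidney F4/80high cells without replicate 2 (0.42, 0.0785), as was Tap2 in the latter without replicate 3 (0.33, 0.268). Because each contrast uses the same 4 groups, the 4 counts are not independent.

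Within an organ, the CD11bhigh and the resident gate differed in few members. Adult liver CD11bhigh cells against Kupffer cells gave 0 calls among the 9 genes by limma, with 1 at an unadjusted p under 0.05 (28.0% of all genes called), and 2 calls without Kupffer replicate 2 or 1 without Kupffer replicate 3. In adult kidney Erap1 (-0.68 ± 0.16 log2) and Nlrc5 (-0.75 ± 0.24) were lower in CD11bhigh than in F4/80high cells (23.6%). In E14 liver Nlrc5 alone was lower in CD11bhigh cells (-0.75 ± 0.24; 24.6%), and in E14 kidney Tap1 (0.72 ± 0.22) and Tapbp (0.68 ± 0.19) were higher (5.81%). Of these 5 calls, Erap1 was kept when any 1 sample was left out, but lost with only the compared groups fitted (limma adjusted p = 0.0623). Nlrc5 in adult kidney was -0.56 without CD11bhigh replicate 1 and -0.51 without F4/80high replicate 2, and in E14 liver -0.66 without Kupffer replicate 2 and -0.60 without CD11bhigh replicate 3. In E14 kidney Tap1 was lost without CD11bhigh replicate 1 or 3 or either F4/80high sample (0.60 to 0.76), and Tapbp without CD11bhigh replicate 2 or 3 or either F4/80high sample (0.58 to 0.74).

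The comparison of Irf8 knockout with wild type asks which of these genes change when Irf8 is missing. Tap1 was lower in the knockout in 9 of 13 populations, Nlrc5 in 5, and Tapbp, Psmb8, Psmb9 and Psmb10 in 4 each. B2m and Tap2 passed in none, and the 2 higher calls, Psmb9 and Erap1, were both in Langerhans cells. Over 13 populations, 31 of 117 tests were lower in the knockout, 2 were higher and 84 did not pass. That is 28.2% called, against 12.9% of all genes over the same 13 comparisons, of which 6.35% were higher and 6.58% lower. A1 (2.77% of all genes lower) and E14 liver CD11bhigh cells (8.29%) had 5 members lower. E14 Kupffer cells (9.81%) and E14 kidney CD11bhigh cells (8.05%) had 4, and A2 (6.28%) and adult liver CD11bhigh cells (7.56%) had 3. E14 microglia (5.98%) and adult microglia (8.71%) had 2, and adult Kupffer cells (7.39%) and adult kidney F4/80high cells (2.19%) had 1. Langerhans cells had 2 higher, where 16.6% of all genes were higher, and 1 lower, where 10.4% were lower. In E14 kidney F4/80high cells (1.97% of all genes called in either direction) limma called 0 members, with 2 at an unadjusted p under 0.05, and in adult kidney CD11bhigh cells (13.6%) 0, with 1. Single samples moved some of these counts: A1 had 2 without wild-type replicate 3, adult microglia 0 without knockout replicate 2, and adult Kupffer cells 5 without wild-type replicate 3, which added Psmb8 (-0.72), Psmb9 (-0.64), Psmb10 (-0.53) and Erap1 (-0.64). The shares in Langerhans cells are near the background of all genes, as is that in adult Kupffer cells with every sample. In adult microglia 2 of 9 is above the 8.71% of all genes, but both calls were lost without knockout replicate 2. The median difference of the 9 genes was lowest in A1 (-0.67 log2) and E14 liver CD11bhigh cells (-0.64), and the median of all genes lay between -0.04 and 0.03 in the 13 comparisons.

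**Figure D3:**
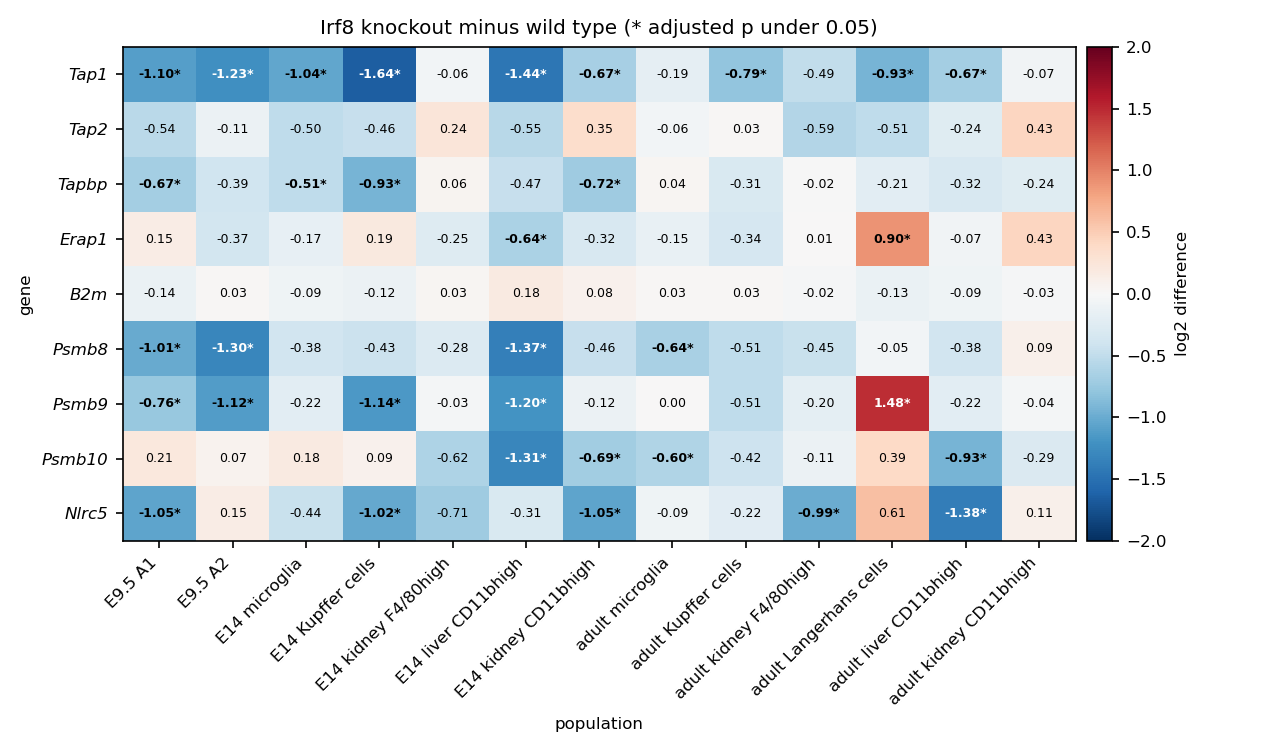
Knockout minus wild-type log2 difference of the 9 genes (rows) in 13 populations (columns), with an asterisk where limma's adjusted p was under 0.05. The Tap1 row is below 0 in all 13 populations and marked in 9, the B2m row lies between -0.14 and 0.18, and the only marked positive cells are Erap1 (0.90) and Psmb9 (1.48) in Langerhans cells.

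The mean of Tap1 was lower in the knockout in all 13 populations, and 9 passed. In E14 Kupffer cells its samples read 6.68, 6.44 and 6.36 in wild-type samples against 5.08, 4.86 and 4.62 in knockout samples, a difference of -1.64 ± 0.20 log2 or 3.12-fold (limma adjusted p = 1.85e-09). In E14 liver CD11bhigh cells they read 6.22, 6.29 and 6.48 against 4.73, 5.21 and 4.71 (-1.44 ± 0.20, adjusted p = 9.26e-08). Both pairs of groups were far from overlapping. Macrophage markers were also lower in these knockout cells, at 7.78 to 8.11 against 9.10 to 9.32 in E14 Kupffer cells and 6.31 to 6.58 against 7.60 to 7.72 in E14 liver CD11bhigh cells, on the log2 scale over all 8 markers. Kupffer cell markers fell from 9.07 to 9.32 to 6.28 to 7.13. Hepatocyte markers were at 5.59 to 6.97 in knockout and 7.31 to 7.81 in wild-type E14 Kupffer samples, and erythroid markers at 7.12 to 7.60 and 7.88 to 8.35. The part of all these markers in the result was not tested.

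At E9.5 Tap1 read 5.28, 5.34 and 5.81 in wild-type A1 and 4.39, 4.90 and 3.84 in knockout A1 (-1.10 ± 0.20, adjusted p = 9.00e-05 by limma), and 5.20, 5.36 and 5.24 against 4.01, 4.29 and 3.82 in A2 (-1.23 ± 0.20, adjusted p = 3.42e-06). The lowest wild-type sample lay above the highest knockout sample in both. Macrophage markers were at 5.03 to 5.36 in knockout and 6.44 to 6.93 in wild-type A1, and at 6.51 to 6.85 and 8.29 to 8.52 in A2, and their part was not tested. E14 microglia read 6.21, 6.54 and 6.50 against 5.39, 5.45 and 5.29 (-1.04 ± 0.20, adjusted p = 7.59e-05). Microglia markers were at 6.96 to 7.31 in these knockout samples and 9.36 to 9.45 in wild type. Monocyte markers were at 7.09 to 7.43 and 4.13 to 5.34, and the part of both was not tested. In adult microglia the groups overlapped, at 6.52, 6.29 and 6.35 against 6.01, 6.57 and 6.03 (-0.19 ± 0.20, adjusted p = 0.673).

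Among the adult populations Tap1 was lower in Langerhans, Kupffer and liver CD11bhigh cells. Langerhans cells read 7.15, 7.28 and 7.25 against 6.24, 6.55 and 6.09 (-0.93 ± 0.20, adjusted p = 1.60e-04 by limma) and adult Kupffer cells 7.62, 7.81 and 7.96 against 6.89, 6.96 and 7.17 (-0.79 ± 0.20, adjusted p = 0.00386). Neither pair overlapped. With array weights the adult Kupffer difference was -0.74 (adjusted p = 0.157), and with only the compared groups fitted it was -0.79 (0.186). Endothelial markers were at 7.47 to 7.97 in knockout and 5.06 to 6.85 in wild-type adult Kupffer samples, and Xist read 9.52 to 9.99 against 2.71 to 3.88, so sex and genotype cannot be told apart there. In adult liver CD11bhigh cells Tap1 was -0.67 ± 0.20, adjusted p = 0.0106, and -0.61 (0.0545) without wild-type replicate 2 or -0.58 (0.0695) without knockout replicate 3. In E14 kidney CD11bhigh cells it was -0.67 ± 0.20, adjusted p = 0.0143, and -0.55 (0.112) without wild-type replicate 3. In adult kidney F4/80high cells (-0.49 ± 0.20, adjusted p = 0.214), adult kidney CD11bhigh cells (-0.07) and E14 kidney F4/80high cells (-0.06) samples overlapped and Tap1 did not pass.

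Tap2 passed in none of the 13 populations by limma, although its unadjusted p was under 0.05 in 6, and its mean was lower in 9 and higher in 4. In Langerhans cells it read 4.82, 5.20 and 5.24 in wild-type samples against 4.77, 4.53 and 4.42 in knockout samples (-0.51 ± 0.22, adjusted p = 0.0748). The groups did not overlap, and the difference was -0.64 (0.0447) without wild-type replicate 1. With array weights Tap2 also passed in A1 (-0.57), E14 microglia (-0.51) and E14 liver CD11bhigh cells (-0.56). Tapbp was lower in 4 populations. Its samples read 6.60, 6.80 and 7.002 in wild-type and 6.09, 5.80 and 5.71 in knockout E14 Kupffer cells (-0.93 ± 0.17, adjusted p = 1.59e-05), again without overlap. In A1 it was -0.67 ± 0.17, adjusted p = 0.00878, in E14 kidney CD11bhigh cells -0.72 ± 0.17, adjusted p = 0.00136 with overlapping samples, and in E14 microglia -0.51 ± 0.17, adjusted p = 0.0297. Tapbp had a second, dimmer probe, which gave the same sign in 8 of 13 populations. With the mean of both probes the difference was -0.28 (adjusted p = 0.498) in A1, -0.42 (0.0689) in E14 kidney CD11bhigh cells and -0.16 (0.623) in E14 microglia. The A1 call was also lost without wild-type replicate 3 (-0.54) or knockout replicate 2 (-0.57), and the E14 microglia call without wild-type replicate 1 or 2 or knockout replicate 2 or 3 (-0.54 to -0.44).

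Psmb9 had the widest range of knockout effects, from -1.20 log2 in E14 liver CD11bhigh cells to 1.48 in Langerhans cells. In E14 liver CD11bhigh cells the samples read 9.46, 9.31 and 9.31 in wild-type samples against 8.20, 8.26 and 8.01 in knockout samples (-1.20 ± 0.19, adjusted p = 1.71e-06 by limma), and in E14 Kupffer cells 9.22, 9.34 and 9.16 against 7.91, 8.25 and 8.11 (-1.14 ± 0.19, adjusted p = 2.79e-06). In A2 they read 7.76, 7.79 and 7.92 against 6.56, 6.68 and 6.89 (-1.12 ± 0.19, adjusted p = 7.90e-06). All 3 pairs of groups were apart. In A1 the difference was -0.76 ± 0.19, adjusted p = 0.00804, and -0.48 (0.297) without knockout replicate 3, which read 5.91, or -0.67 (0.095) without wild-type replicate 3. In microglia Psmb9 did not pass, with 0.00 in the adult and -0.22 ± 0.19, adjusted p = 0.558 at E14.

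In Langerhans cells Psmb9 rose. The samples read 7.80, 7.21 and 7.37 in wild-type samples against 9.01, 9.09 and 8.73 in knockout samples, a 2.80-fold difference (1.48 ± 0.19, adjusted p = 2.73e-09 by limma). All 3 knockout samples lay above all 3 wild-type samples, and they reached the level of Psmb9 in adult microglia. Tap1, across the 225 bases shown above, went the other way in the same samples. Erap1 rose too, from 4.88, 5.21 and 5.16 to 5.91, 6.13 and 5.90 (0.90 ± 0.16, adjusted p = 5.37e-06), while Psmb10 (0.39 ± 0.16, adjusted p = 0.063) and Nlrc5 (0.61 ± 0.24, adjusted p = 0.0555) did not pass and Psmb8 was -0.05. Psmb10 and Nlrc5 each passed in 6 of the alternatives: both with array weights (0.45 and 0.63), quantile normalization (0.42 and 0.71), median centring (0.51 and 0.72) and a stricter filter on low values, Nlrc5 with a replicate block (adjusted p = 0.0342 by limma) or without wild-type replicate 2 (0.76), and Psmb10 without wild-type replicate 1 (0.53) or knockout replicate 3 (0.61, adjusted p = 0.00592). Langerhans cell markers were at 9.25 to 9.45 in the knockout and 8.84 to 9.15 in wild type, and keratinocyte markers at 8.30 to 8.68 and 6.61 to 6.99 (7 of 8 markers measured). Their part in the result was not tested, and the GFP label of the wild-type samples cannot be told apart from genotype. The Y-linked Eif2s3y read 4.87 to 7.57 in these knockout samples and 1.31 to 2.68 in wild type.

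**Figure D4:**
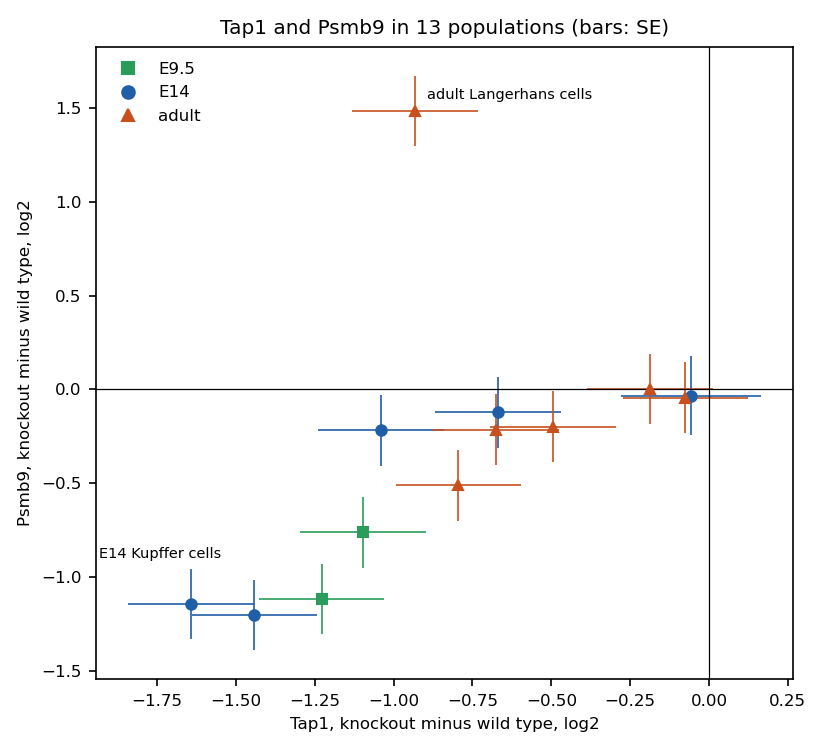
Knockout minus wild-type log2 difference of Tap1 (horizontal) against Psmb9 (vertical) in 13 populations, coloured by stage, with SE bars. E14 Kupffer cells lie lowest on Tap1 (-1.64), and Langerhans cells lie alone in the upper left, at -0.93 for Tap1 and 1.48 for Psmb9.

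Psmb8 was lower in 4 populations. It read 6.20, 6.30 and 6.27 in wild-type and 4.70, 5.38 and 4.80 in knockout A2 (-1.30 ± 0.19, adjusted p = 3.81e-07 by limma), 5.80, 6.24 and 6.19 against 5.57, 5.03 and 4.59 in A1 (-1.01 ± 0.19, adjusted p = 1.79e-04), and 7.16, 7.42 and 7.30 against 6.01, 5.81 and 5.95 in E14 liver CD11bhigh cells (-1.37 ± 0.19, adjusted p = 1.17e-07). No samples overlapped in these 3. In adult microglia the difference was -0.64 ± 0.19, adjusted p = 0.0131, and it lost the call without wild-type replicate 2 (-0.55) or 3 (-0.54) or knockout replicate 2 (-0.50, adjusted p = 0.131). Xist read 2.99 in wild-type replicate 1 and above 10 in the other 5 adult microglia samples. Microglia markers were at 7.97 to 8.15 in knockout and 10.06 to 10.19 in wild-type adult microglia, and their part was not tested. Psmb10 was lower in another set of 4. It read 9.21, 9.14 and 8.94 against 7.88, 7.58 and 7.90 in E14 liver CD11bhigh cells (-1.31 ± 0.16, adjusted p = 5.59e-09) and 9.48, 9.49 and 9.71 against 8.19, 9.06 and 8.65 in adult liver CD11bhigh cells (-0.93 ± 0.16, adjusted p = 8.10e-06), without overlap. It was lower by -0.69 in E14 kidney CD11bhigh cells and -0.60 in adult microglia, the latter -0.46 (0.0877) without knockout replicate 2. In yolk sac A1 (0.21) and A2 (0.07), where Psmb8 and Psmb9 were lower, Psmb10 did not pass.

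E14 liver CD11bhigh cells were the single population in which all 3 immunoproteasome genes were lower, together with Erap1 (7.17, 7.11 and 7.07 against 6.43, 6.28 and 6.73; -0.64 ± 0.16, adjusted p = 0.0025 by limma). Neutrophil markers were at 10.21 to 10.25 in these knockout samples against 8.95 to 9.25 in wild type. They were further apart in the other CD11bhigh groups: 9.93 to 10.27 against 5.49 to 7.04 in adult liver, 7.73 to 8.52 against 3.56 to 4.93 in adult kidney and 8.28 to 10.10 against 4.85 to 7.34 in E14 kidney, over all 14 markers on the log2 scale. E14 microglia had the same shift, 8.26 to 8.65 against 3.58 to 6.60. T and NK cell markers in adult kidney CD11bhigh cells were at 3.45 to 4.15 against 5.28 to 5.84. No member passed there in the main fit. Tapbp passed as lower with the mean of all probes (-0.47, limma adjusted p = 0.0378). Erap1 passed as higher with quantile normalization (0.42, 0.0492) and with the stricter filter on low values (0.43, 0.0419). The part of all these markers in the members' differences was not tested.

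Nlrc5 was lower in 5 populations. In adult liver CD11bhigh cells it read 6.04, 5.98 and 6.04 in wild-type samples against 4.78, 4.65 and 4.51 in knockout samples, a 2.59-fold difference (-1.38 ± 0.24, adjusted p = 1.09e-05 by limma), with every knockout sample more than 1 log2 unit below every wild-type sample. It was also lower in E14 Kupffer cells (3.17, 3.55 and 3.39 against 2.23, 2.30 and 2.53; -1.02 ± 0.24, adjusted p = 0.00106) and E14 kidney CD11bhigh cells (3.63, 3.50 and 3.56 against 2.31, 2.45 and 2.78; -1.05 ± 0.24, adjusted p = 0.00125), without overlap. The knockout values there lay below the table median of 3.041, so these differences are measured near the lower end of the scale. In adult kidney F4/80high cells it was -0.99 ± 0.24, adjusted p = 0.00707, and -0.75 (0.144) without wild-type replicate 2 or -0.92 (0.0544) without knockout replicate 3. In A1 it was -1.05 ± 0.24, adjusted p = 0.00382, and -0.71 (0.192) without wild-type replicate 3. Knockout adult liver CD11bhigh samples had macrophage markers at 7.41 to 7.64, against 8.84 to 9.01 in wild type. Their B cell markers were at 4.72 to 5.70 against 3.60 to 3.999. Knockout E14 kidney CD11bhigh samples had macrophage markers at 7.44 to 8.32 against 9.03 to 9.11. The part of these markers in the members' differences there was not tested.

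**Figure D5:**
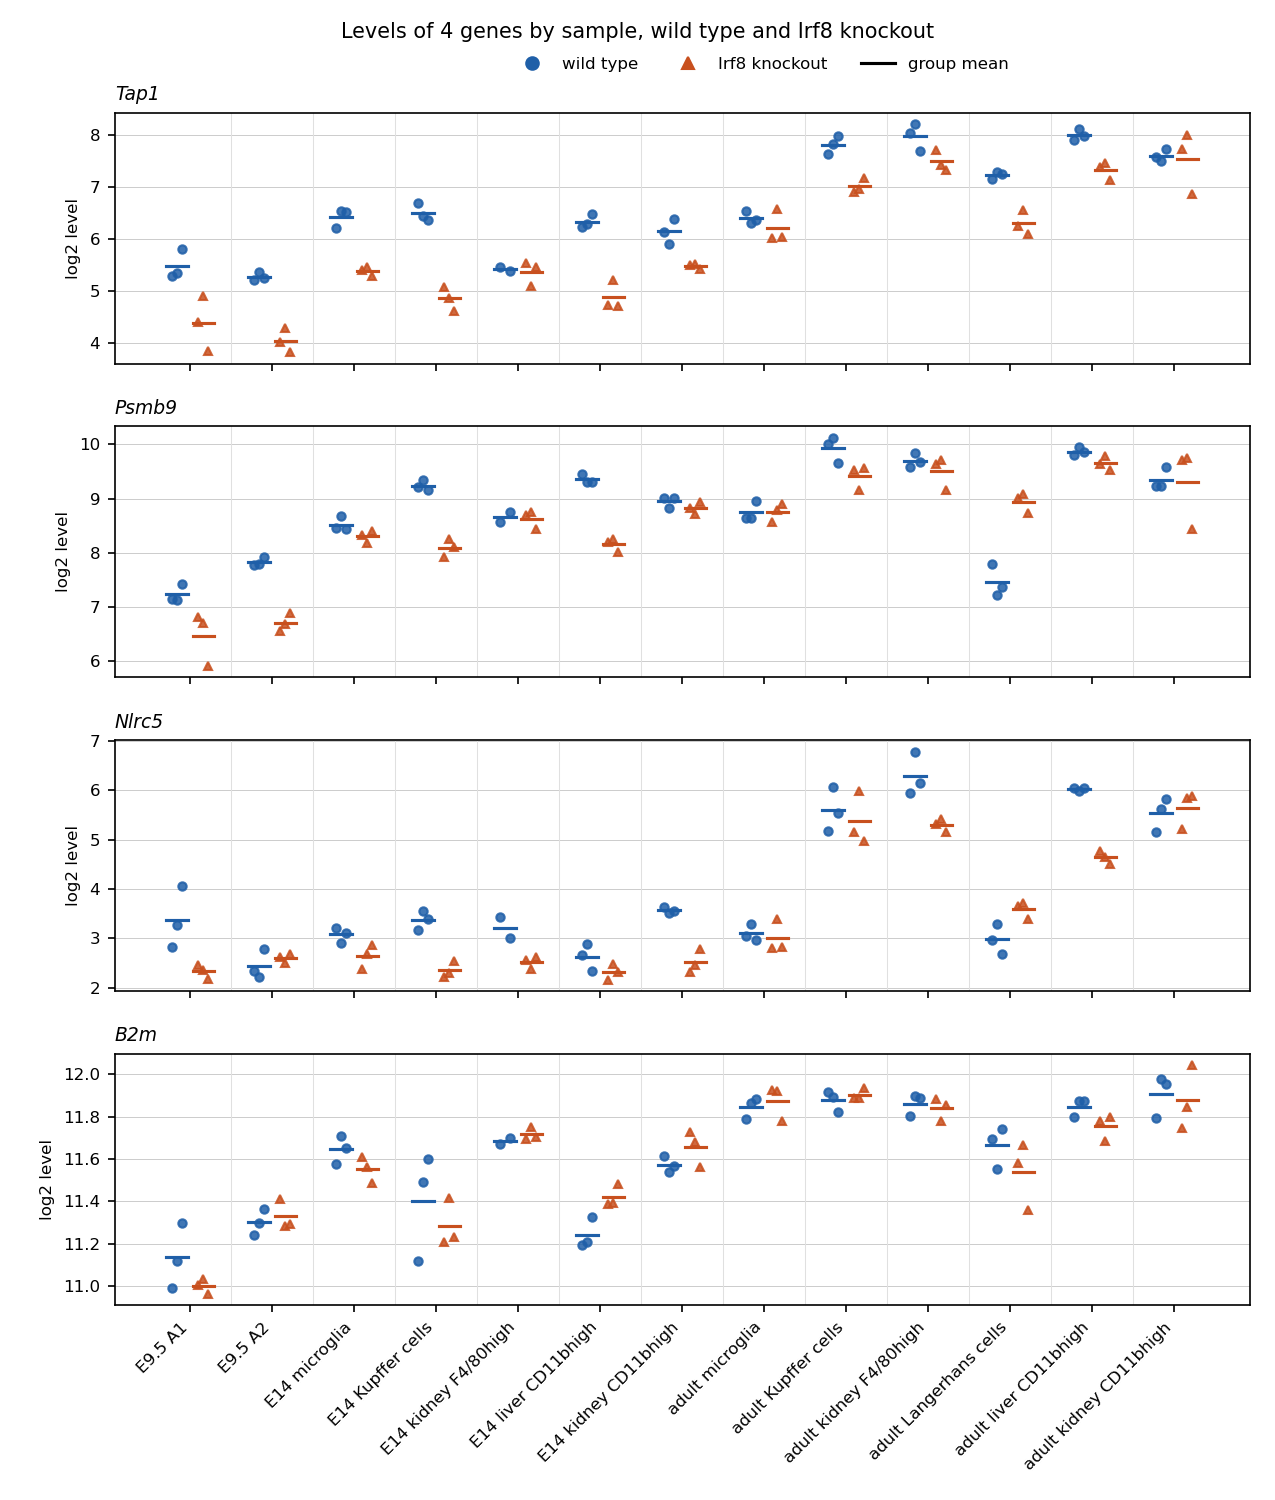
Log2 level of Tap1, Psmb9, Nlrc5 and B2m (panels, each with its own vertical range) in every wild-type (circles) and knockout (triangles) sample of 13 populations, with bars at group means. All Tap1 triangles lie below all circles in 9 populations, Psmb9 triangles lie above them in Langerhans cells (8.73 to 9.09 against 7.21 to 7.80), and B2m spans only 10.96 to 12.04.

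B2m passed in no population by limma, with an unadjusted p under 0.05 in 1 of 13. Its knockout difference ran from -0.14 ± 0.08 log2 in A1 to 0.18 ± 0.08 in E14 liver CD11bhigh cells, and its mean was higher in 6 populations and lower in 7. In E14 Kupffer cells, where Tap1, Tapbp, Psmb9 and Nlrc5 were lower, B2m read 11.12, 11.49 and 11.60 in wild-type samples against 11.21, 11.41 and 11.23 in knockout samples. The 2 groups overlapped. Without wild-type replicate 1, the lowest of its group, the difference was -0.26 (limma adjusted p = 0.0138), and with quantile normalization it was -0.27 (0.00468). In E14 liver CD11bhigh cells B2m passed as higher with array weights (0.18, adjusted p = 0.0146 by limma) and with the compared groups alone (0.0494).

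The adult and E14 knockout effects were then tested against each other within each of 5 populations. Over 45 such tests 8 passed, 17.8% against 11.1% of all genes. In microglia (10.5% of all genes called) the Tap1 effect was nearer 0 in the adult, -0.19 against -1.04, and the Psmb10 effect further below it, -0.60 against 0.18. In liver CD11bhigh cells (14.5%) Psmb8 and Psmb9 were lower by -1.37 and -1.20 at E14 and differed by -0.38 and -0.22 in the adult. The difference between these effects was 0.99 ± 0.27 log2 for Psmb8 (limma adjusted p = 0.00699) and 0.99 ± 0.27 for Psmb9 (0.00602). Nlrc5 went the other way there, -1.38 in the adult against -0.31 at E14. These 2 proteasome differences were kept in every alternative run. Kupffer cells (16.3%) had 1 such difference, Tap1, and kidney CD11bhigh cells (13.2%) had 2, Nlrc5 and Erap1. Without knockout E14 replicate 1 Kupffer cells had 3, and microglia had 0 without wild-type adult replicate 3 or knockout adult replicate 2. In kidney F4/80high cells (1.04%) limma gave 0, with 2 at an unadjusted p under 0.05.

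Companion genes of the route and interferon-stimulated genes were read in the same knockout comparisons. Their lists were also chosen with earlier results of these data known. Class I heavy chains were higher in 9 and lower in 17 of 156 tests, 16.7% called, the regulators 28.8% and the interferon-stimulated genes 43.4%, against 12.9% of all genes. In E14 Kupffer cells 6 of 12 heavy chains were lower and 1 higher, H2-Q10 (0.90, named after its values were seen). Among the lower were H2-M3 (-1.55 ± 0.27, adjusted p = 6.59e-06 by limma), H2-T23 (-1.36) and H2-K1 (-0.95), with probe sharing between copies as a limit. H2-Q10 was also higher in A2 (1.25), E14 liver CD11bhigh cells (3.54) and E14 microglia (1.80). The constitutive subunits Psmb5, Psmb6 and Psmb7 were all 3 higher in E14 Kupffer cells, at 0.67, 0.58 and 0.37 log2, where Psmb9 was lower. Over all populations these 3 genes had 4 tests higher and 4 lower. The 8 loading chaperones were higher in 1 and lower in 13 tests, with Calr lower in E14 liver CD11bhigh cells (-0.97). The 16 class I regulators tested were higher in 12 and lower in 48 tests, and Stat2, a mediator of type I interferon signals, was lower in E14 Kupffer cells (-1.74 ± 0.18, adjusted p = 7.17e-12) and adult liver CD11bhigh cells (-1.19).

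Of 34 interferon-stimulated genes, 24 were lower and 1 higher in knockout E14 Kupffer cells, 20 and 1 in E14 liver CD11bhigh cells, 24 and 0 in E14 kidney CD11bhigh cells, 25 and 0 in adult liver CD11bhigh cells, 17 and 0 in A2 and 14 and 0 in A1. Microglia went the other way, with 20 higher and 1 lower in the adult and 10 and 3 at E14. The median of the 34 genes was 0.98 log2 in adult microglia and 0.54 in E14 microglia, against -1.24 in E14 kidney CD11bhigh, -1.19 in adult liver CD11bhigh and -1.09 in E14 Kupffer cells. Oas2, an antiviral sensor enzyme, was higher by 4.76 ± 0.30 log2 in knockout adult microglia (limma adjusted p = 5.51e-21) and lower in E14 Kupffer cells (-2.23 ± 0.30). Stat2 was higher in adult microglia (0.99). In these adult microglia 0 of the 9 members were higher, and Psmb8 and Psmb10 were lower. Langerhans cells had 7 higher and 2 lower, and the interferon gamma receptor chain Ifngr1 (2.52 ± 0.17) and the transcription factor Irf1 (1.76 ± 0.23) were higher there, beside Psmb9. The lists of regulators and of interferon-stimulated genes share members, Stat2 among them.

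Across the 27 group means, the genes with the pattern most like each member were described by Pearson's r over the same arrays. Tap1 was closest to Stat2 and H2-T23 (both 0.94), Tap2 to H2-T23 (0.95) and Tapbpl (0.91), and Tapbp to Tapbpl (0.94). Nlrc5 was closest to Cxcl9 (0.96), Gbp4 and Phf11 (both 0.91). B2m was closest to Tyrobp (0.98), Laptm5 and Lcp1 (both 0.96), and Erap1 to Lst1 (0.93) and Celf2 (0.92). Psmb8 was closest to Gm2a and Rassf4 (both 0.94), Psmb9 to Pold4 (0.92) and Psmb10 to Ssbp4 (0.85). Between members r was 0.95 for Psmb8 and Psmb9, 0.93 for Tap1 and Tap2, 0.80 for Tap1 and Psmb9 and -0.24 for Psmb10 and Tap2. Groups share arrays, stages and genotypes, so these values describe the table and carry no test.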

How the data were processed

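Sorted cells were measured on Affymetrix arrays; per the labels' protocols, liver, kidney and skin were digested with collagenase, brain cells were separated on Percoll, and the RNA was amplified before labelling. The authors deposited log2 signals. Per the submitters' processing notes, RMA and Affymetrix Expression Console were used; a version or genome build was not given in the sources used here. No further normalization was applied. The 2 array runs of knockout A2 replicate 2 were averaged and counted as 1 sample. Of 41345 probes, 23521 had 1 symbol, 1814 several, and 16010 were unnamed here; several probes stood for 1082 of the 22180 genes, and the brightest was kept. Genes above 3.041, the median of the table, in at least 2 arrays were tested (17099).

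One limma 3.58.1 model (R 4.3.3) with a mean for each of 27 groups was fitted over all samples, with eBayes and a trend, and p-values were adjusted by Benjamini-Hochberg over all tested genes per comparison, with a threshold of 0.05. The model was tested on simulated data. The members and the companion lists were chosen with earlier results of these data known. Per list and comparison up to 4 called genes with the smallest adjusted p could be named, apart from Psmb5, Psmb6 and Psmb7, and likeness was Pearson's r over group means. Alternatives were leaving out each sample, the compared groups alone, a replicate block, array weights, quantile normalization, median centring, no filter or the 75th percentile as the filter, the mean of all probes and either array run alone. Motifs were searched in RefSeq promoter windows (GRCm38.p6).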

Additional observations from a re-analysis of the deposited data

Results flagged for a closer look

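Adult and E14 knockout effects differed by limma's interaction test in 8 cases (adult effect minus E14 effect, log2 ± SE, 3 samples a group). Psmb8 and Psmb9 in liver CD11bhigh cells differed by 0.99 ± 0.27 (adjusted p = 0.00699) and 0.99 ± 0.27 (0.00602), lower in the E14 knockout with no call in the adult. Nlrc5 in the same cells differed by -1.07 ± 0.34 (0.0253), lower in the adult knockout, and lost the call without wild-type E14 replicate 3 (-0.92, adjusted p = 0.0908), knockout adult replicate 3 (0.0591) or knockout E14 replicate 2 (-0.99, 0.0704).

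Tap1 in microglia differed by 0.85 ± 0.28 (0.0382 by limma) and in Kupffer cells by 0.85 ± 0.28 (0.0283), with the wider knockout effect at E14 in both. In microglia the call was lost in 8 of 12 cases of leaving out 1 sample (0.67 to 0.89), and in Kupffer cells without wild-type E14 or adult replicate 1 or knockout E14 or adult replicate 3 (0.73 to 0.77). The microglia call was also lost with median centring (limma adjusted p = 0.0576), and the Kupffer call with array weights (0.0668) or the compared groups alone (0.0876). Psmb10 in microglia differed by -0.78 ± 0.23 (0.0167), and by -0.72 without wild-type adult replicate 3 and -0.65 without knockout adult replicate 2, both no longer past the threshold. In kidney CD11bhigh cells Nlrc5 differed by 1.16 ± 0.34 (0.0159) and Erap1 by 0.75 ± 0.22 (0.0159). The Nlrc5 call was lost without wild-type adult replicate 1 (0.96), knockout adult replicate 3 (1.04) or knockout E14 replicate 1 (1.05). It was also lost with array weights (limma adjusted p = 0.0725) or the compared groups alone (0.166), and the Erap1 call with the latter (0.12). Knockout kidney and liver CD11bhigh cells had higher neutrophil markers at both ages, and their part in these differences was not tested.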

How the results depend on the processing

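Of 5625 recomputed values of 324 results, 5405 kept direction and side of the threshold, 134 lost the call, 86 gained it and 0 reversed. Of the 33 knockout calls 22 were kept in every setting, of 28 adult calls 23, of 31 yolk sac calls 24, of 27 resident calls 22, of 8 differences of effects 2 and of 5 gate calls 0. With only the compared groups fitted, the gate calls fell from 5 to 2, and 6 knockout calls were lost: Psmb8 in adult microglia (limma adjusted p = 0.064), Tap1 in adult Kupffer (0.186) and E14 kidney CD11bhigh cells (0.0988), Tapbp in the latter (0.123), and Nlrc5 in adult kidney F4/80high cells (0.0675) and A1 (0.0601). Leaving out 1 sample at a time, calls numbered 30 to 37 for the knockout, 26 to 30 for adult against E14, 6 to 10 for the differences of effects, 3 to 7 for the gates, 28 to 32 for the yolk sac steps, 25 to 27 for the resident populations and 9 to 9 for the F-test.

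With a replicate block calls numbered 34, 28, 9, 4, 31, 27 and 9 in the same order. The labels do not say that a number pairs samples, and in 0 sets did every pair's deviations correlate above 0.1, although same-numbered E14 samples of different gates had like Xist levels (9.24, 8.72 and 3.14 in knockout Kupffer cells, 9.40, 9.29 and 3.21 in knockout liver CD11bhigh cells). The highest r, 0.386, was in the wild-type adult kidney gates, whose other pairs were close to the cut-off at 0.0992 and 0.0963. The block ended the Tap1 call of the E14 kidney gates (0.72, limma adjusted p = 0.0966). Median centring moved the median of all genes by 0.11 in knockout Langerhans cells and -0.12 from A2 to E14 microglia, and by under 0.1 in the other comparisons. It ended the adult calls of Psmb9 (0.45) and Psmb10 (0.41) in liver CD11bhigh cells, of Tap2 in microglia (0.57) and of Tapbp in kidney CD11bhigh cells (0.41). Nlrc5 lay near the lower and B2m near the upper end of the signal range, where small differences are the least certain.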
